A study of Bos taurus with 2 samples.

Results

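Laminins and the proteins that link them into basement membrane were followed through cultured bovine satellite cells. The 9 genes were chosen by name and are the laminin chains LAMA2, LAMA4, LAMA5, LAMB1, LAMB2 and LAMC1, the nidogens NID1 and NID2, and perlecan (HSPG2). Of these, 8 were found among the 21867 features that were counted. LAMA2 carried no row under that symbol, 5245 features were named only by an identifier, and LAMA2 is not analysed here. The study isolated satellite cells, the myogenic progenitors of postnatal muscle, from the longissimus muscle of 1 male Holstein calf aged 2 weeks and grew them for 1 week in DMEM with 10% fetal bovine serum, with no further treatment. A pair of droplet-based single-cell RNA libraries, replicates 1 and 2, was made from the same cultured cells. Each library counts unique molecular identifiers (UMIs), one for each captured RNA 3′ end, in single cells, and the authors divided the cells into 15 clusters. Because 1 calf and 1 culture were used, a p-value here measures a difference against the spread between library preparations only, and the clusters compared were themselves defined on these counts.

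A laminin is a heterotrimer of an α, a β and a γ chain that assembles inside the cell and is secreted into the basement membrane, the sheet of matrix that wraps each muscle fibre and under which satellite cells lie. Nidogens bind the γ1 chain and type IV collagen, and perlecan is a heparan sulfate proteoglycan that binds laminin, nidogen and cell surface receptors. The α2 chain (LAMA2) is the main α chain of mature muscle fibres, the α4 and α5 chains are known from vessels and from developing muscle, and the β2 chain is known for its place at the neuromuscular junction.

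The libraries held 9939 and 9157 cells with 145631299 and 137818568 UMIs, and 27 cell barcodes occurred in both. The median depth lay between 12929 and 23011 UMIs per cell in clusters 1 to 6, 8, 9, 11 and 12, while it was 5398.5 in cluster 10 and between 647 and 2513.5 in clusters 7, 13, 14 and 15 (1389 for cluster 7). Ribosomal protein genes gave 8.38% of the UMIs in cluster 7 and between 20.5% and 27.8% in the other clusters. The study names clusters 1, 2, 3, 4, 5, 8 and 12 myogenic and clusters 7 and 9 fibro-adipogenic. MYOD1, a myogenic transcription factor, was at 0.571 UMIs per 10000 in cluster 9 and at 0.892 or more in the other clusters, while PDGFRA, a receptor used to mark fibro-adipogenic progenitors, was at 1.58 in cluster 9, 1.48 in cluster 7 and 0.502 or less elsewhere. Cluster 7 also held MYOD1 at 2.46 and MYOG at 1.75 UMIs per 10000, so its label was not borne out by these markers alone and it is called by its number. PAX7, the defining gene of quiescent satellite cells, had 176 UMIs in all cells. The 8 endothelial markers summed to between 0 and 0.224 UMIs per 10000 over the clusters, with no UMI of TIE1 and 25 of KDR, and the 5 glial markers to between 0.120 and 0.541, with no UMI of SOX10 or FOXD3. Of the 9011 UMIs of the glial list 9004 were of S100B, and of the 956 UMIs of the endothelial list 598 were of CLDN5. Endothelium and Schwann cells express these laminins in intact muscle. By TIE1, KDR, SOX10 and FOXD3 they were at or near 0, while S100B went the other way.

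Levels are given as UMIs per 10000 UMIs of a cluster, computed in each library, with the mean and SD of the 2 libraries (n = 2). A level is a share of a cluster's RNA, and it is compared between clusters and not between genes. LAMA4 varied most widely among the 7 members with more than 1000 UMIs. Among clusters 1 to 6 and 8 to 12, called the deep clusters below, its level ran from 0.0628 ± 0.0106 in cluster 12 to 1.09 ± 0.0347 in cluster 9, a 17.3-fold range. Cluster 8 was next to cluster 9 with 0.736 in replicate 1 and 0.794 in replicate 2, followed by cluster 4 with 0.519 and 0.499 and cluster 5 with 0.488 and 0.469. The libraries of these 4 clusters did not overlap, although the test of cluster 4 against cluster 5 given below did not call LAMA4. At the lower end cluster 2 had 0.228 and 0.220, cluster 6 had 0.197 and 0.246, and cluster 3 had 0.110 and 0.136. Clusters 2 and 6 overlapped, and cluster 3 lay between them and cluster 12.

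**Figure D1:**
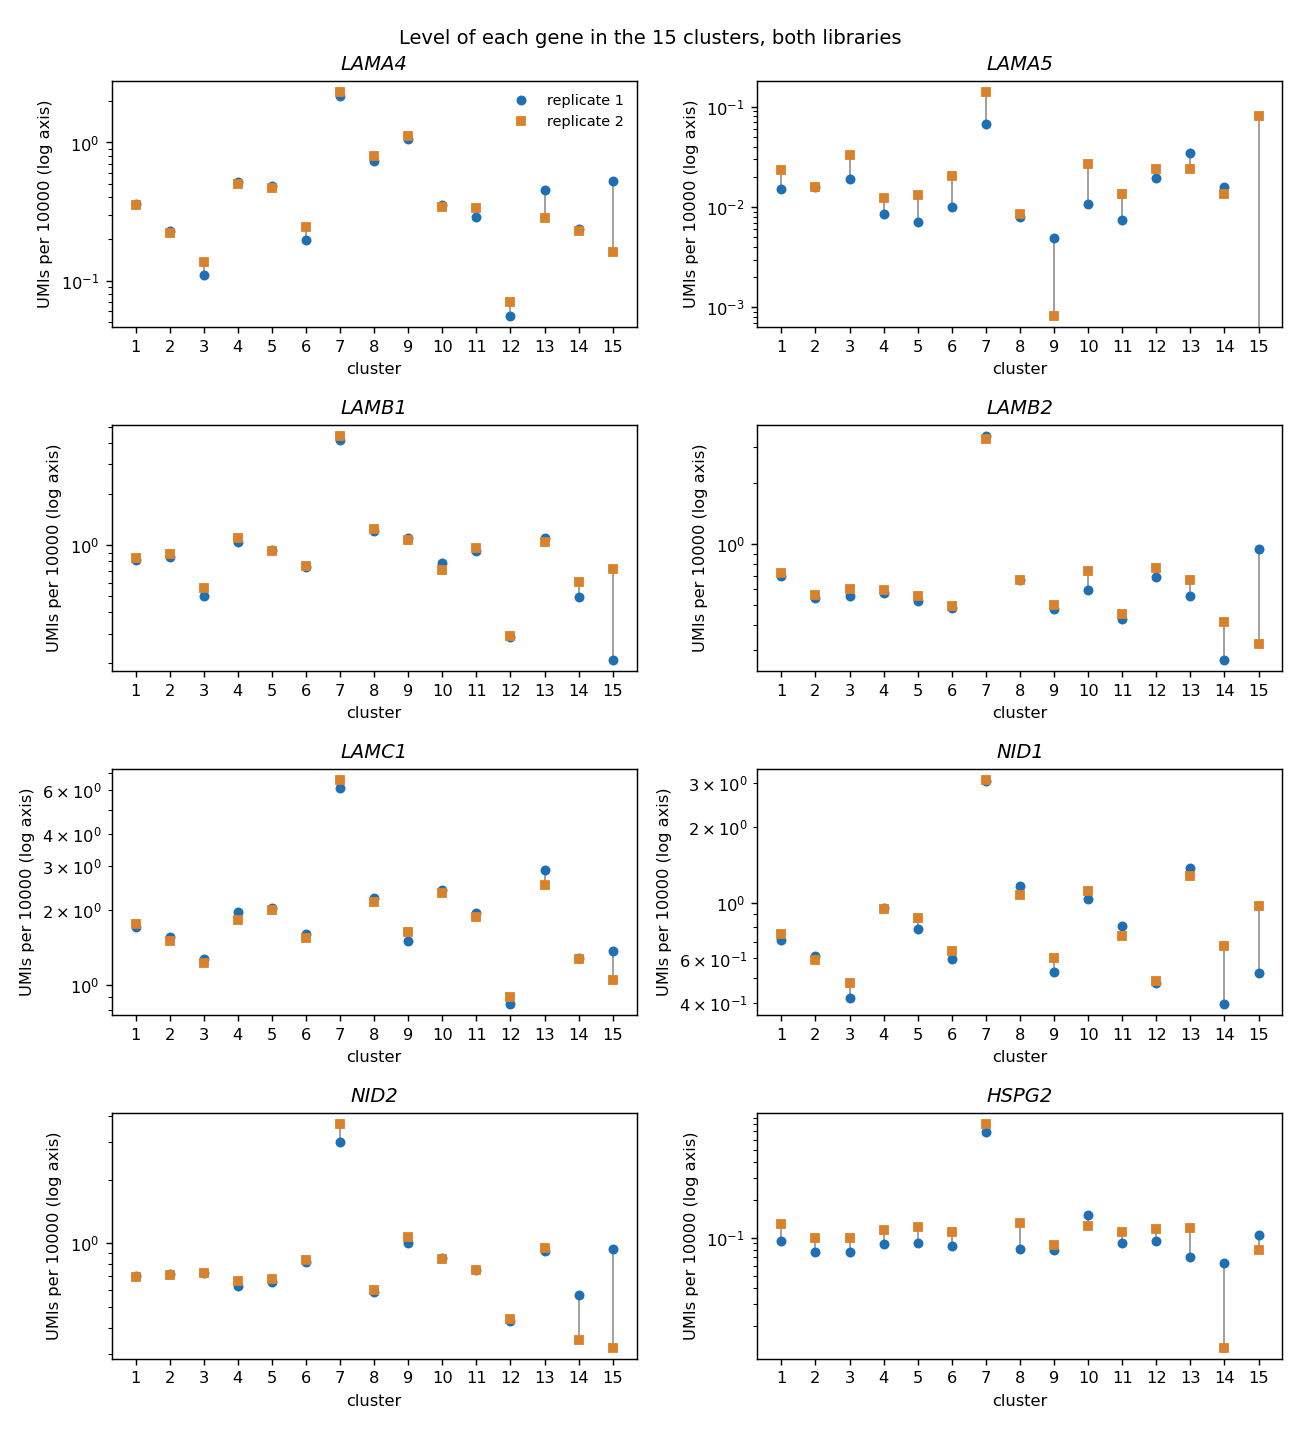
Level of each of the 8 genes in the 15 clusters, in UMIs per 10000 UMIs of the cluster on log axes, with circles for replicate 1, squares for replicate 2 and a line joining both. Cluster 7 is highest for every gene, LAMA4 spans the widest range of the deeper genes, and LAMA5 in cluster 15 was 0 in replicate 1 and has no point there.

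LAMA5, the other α chain found, had only 435 UMIs in all, 179 in replicate 1 and 256 in replicate 2. Its level lay at 0.0259 ± 0.00980 UMIs per 10000 in cluster 3 and 0.0217 ± 0.00315 in cluster 12, against 0.00826 ± 0.000466 in cluster 8. In cluster 9 it was 0.00493 in replicate 1, from 7 UMIs, and 0.000821 in replicate 2, from 1 UMI. Of its 14 pairs of neighbouring clusters 12 overlapped between libraries, so that its order over the clusters is poorly resolved.

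The β chains ran in different orders. LAMB1 ranged from 1.23 ± 0.0276 UMIs per 10000 in cluster 8 to 0.288 ± 0.00213 in cluster 12, which were its highest and lowest levels among the deep clusters, a 4.26-fold range. LAMB2 had its highest mean level among them in cluster 12, with 0.689 in replicate 1 and 0.764 in replicate 2, where it overlapped cluster 1 with 0.7003 and 0.720, and its lowest in cluster 11, with 0.427 and 0.453. Its range was 1.65-fold, and 10 of its 14 neighbouring pairs overlapped.

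LAMC1, the γ1 chain that nearly all muscle laminins share, ranged from 0.871 ± 0.0382 UMIs per 10000 in cluster 12 to 2.37 in cluster 10, a 2.72-fold range. Among clusters of full depth, cluster 8 was at 2.19 ± 0.0658, cluster 5 at 2.02 ± 0.0332 and cluster 11 at 1.90 ± 0.0431. The level of LAMC1 was thus less spread over the clusters than those of LAMA4 and LAMB1.

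The nidogens, which bridge laminin and type IV collagen, were ordered differently from each other. NID1 was highest among the deep clusters in cluster 8, with 1.16 in replicate 1 and 1.07 in replicate 2, where NID2 was at 0.592 and 0.601. Cluster 10 overlapped cluster 8 for NID1, with 1.07 ± 0.0555. NID2 was highest in cluster 9, with 1.00 and 1.08, where NID1 was at 0.530 and 0.603. Both were low in cluster 12, with NID1 at 0.484 ± 0.00653 and NID2 at 0.436 ± 0.00485, and NID1 was also low in cluster 3 with 0.449 ± 0.0441.

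HSPG2 was at a low and nearly even level in the deep clusters, between 0.0833 ± 0.00525 UMIs per 10000 in cluster 9 and 0.138 in cluster 10. It had 1317 UMIs in replicate 1 and 1610 in replicate 2, and 12 of its 14 neighbouring pairs of clusters overlapped. The pairs apart were clusters 7 and 10 and clusters 9 and 14, each with a cluster outside the deep ones. Among the deep clusters its level thus separated no neighbours by this rule, which does not pair the libraries. In all deep clusters but cluster 10 the level of HSPG2 was higher in replicate 2, which widens the ranges. Overlap therefore does not show that neighbours were equal within a library.

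Cluster 7 held the highest level of all 8 genes. LAMC1 was at 6.09 and 6.58 UMIs per 10000, LAMB1 at 4.16 and 4.41, LAMB2 at 3.41 and 3.31, NID2 at 3.01 and 3.67, NID1 at 3.04 and 3.08, LAMA4 at 2.17 and 2.31, and HSPG2 at 0.691 and 0.804. For these 7 genes both libraries of cluster 7 lay above both libraries of every other cluster, by between 2.07-fold over the next cluster for LAMA4 and 5.42-fold for HSPG2. The share of all genes that were highest in cluster 7 in this way was not counted. This separation is therefore not read as particular to these genes. LAMA5 rested on 23 UMIs there and overlapped cluster 15. The fibroblast marker list also summed highest in cluster 7, at 592 UMIs per 10000 against 266 in cluster 8 and less elsewhere, as did the basement membrane collagens at 11.3 against 3.60 in cluster 9. Of the 3643327 UMIs of the fibroblast list in all cells, 1405511 were of COL1A2, 988649 of COL3A1 and 943846 of COL1A1, which encode fibrillar collagen chains. The 6 myocyte markers summed to 16.9 UMIs per 10000 in cluster 7, above all clusters but cluster 12 at 54.6. These cells were shallow and low in ribosomal protein RNA, and the part of that in the levels was not tested.

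Cluster 9 was first compared with the 7 myogenic clusters, which asks whether PDGFRA-enriched cells carry another set of chains than the myogenic cells. For the UMI sums of both sets of cells, the quasi-likelihood test of edgeR was run over all genes that passed its filter, and those with a Benjamini-Hochberg adjusted p under 0.05 were called. Higher in cluster 9 were 3 members, where 28.9% of all tested genes were called higher, and lower were 3, where 27.6% of all genes were called lower. The counts of members called were thus not far from those of all genes, and the members went both ways.

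LAMA4 was at 1.06 and 1.11 UMIs per 10000 in cluster 9 and at 0.345 and 0.348 in the myogenic clusters, a log2 fold change of 1.63 (SE 0.0424, adjusted p = 1.05e-05). NID2 was at 1.00 and 1.08 against 0.665 and 0.672 (log2 fold change 0.61, SE 0.0460, adjusted p = 0.000232), and LAMB1 at 1.11 and 1.08 against 0.820 and 0.857 (0.36, SE 0.0459, adjusted p = 0.00158). All 3 were higher in both libraries without overlap. NID1 was lower, at 0.530 and 0.603 against 0.714 and 0.733 (log2 fold change -0.38, SE 0.0637, adjusted p = 0.00457), as was LAMB2, at 0.479 and 0.4999 against 0.594 and 0.622 (-0.34, SE 0.0480, adjusted p = 0.00243). The nidogens and the β chains were thus called in opposite directions against the pooled myogenic cells. Against single myogenic clusters this did not hold for all. LAMB1 at 1.09 in cluster 9 was below cluster 8 at 1.23, and NID1 at 0.566 was above clusters 3 and 12 at 0.449 and 0.484. LAMA4 and NID2 in cluster 9 lay above, and LAMB2 below, every single myogenic cluster in both libraries. LAMA5 was called lower (log2 fold change -2.44, SE 0.560, adjusted p = 0.0140) on 8 UMIs in cluster 9, and in replicate 1 alone the difference was -1.37. LAMC1 (-0.10, adjusted p = 0.120) and HSPG2 (-0.28, adjusted p = 0.213) were not called. With the library as a block both were called lower, LAMC1 at -0.10 (adjusted p = 0.0153) and HSPG2 at -0.27 (adjusted p = 0.0379).

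The genes around the laminins were also divided in this comparison. Of the 16 laminin receptor genes tested, 5 were higher and 9 lower in cluster 9. BCAM, the Lutheran receptor for α5 laminins, was at 0.0777 against 0.477 UMIs per 10000 (log2 fold change -2.63, adjusted p = 1.40e-05), and ITGA7, the laminin-binding integrin α chain of muscle, at 0.409 against 2.31 (-2.52, adjusted p = 1.42e-05). Of 5 basement membrane collagens tested, 3 were higher and 1 lower. Among 13 other basement membrane components, 1 was higher and 8 were lower, and the one that was higher was TINAGL1, a matrix protein of basement membranes, at 0.797 against 0.0381 (log2 fold change 4.36, adjusted p = 4.33e-06). The median log2 fold change was -0.99 for the receptors and 1.54 for the collagens, beside -0.19 for the members and -0.01 for all genes. The dystroglycan glycosylation genes, whose products build the sugar that laminin α chains bind, had 6 higher and 4 lower of 16 tested. Fibroblast markers had 4 higher and 4 lower of 9 tested, and all 6 myogenic and all 6 myocyte markers were lower. All 10 S phase genes were higher (median log2 fold change 0.74), as were 5 of 10 G2/M genes, of which 1 was lower. Of 6 endothelial markers tested 3 were higher and 1 lower, at a summed level of 0.0367 UMIs per 10000 in cluster 9. The part of these in the members' values was not tested.

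Between clusters 9 and 7, which share a label in the study, all 8 members were called lower in cluster 9, where 26.6% of all genes were called lower and 29.9% higher. HSPG2 was at 0.0796 and 0.0870 against 0.691 and 0.804 UMIs per 10000 (log2 fold change -2.67, SE 0.164, adjusted p = 2.05e-05), and LAMB2 at 0.479 and 0.4999 against 3.41 and 3.31 (-2.27, SE 0.101, adjusted p = 6.39e-06). No library of cluster 9 reached a library of cluster 7 for any member. The share of all genes separated in this way was not counted, here or in the other comparisons. These levels are shares of total UMIs, and with total UMIs as scale 4587 genes were called lower in cluster 9 and 1904 higher. The log2 fold changes were -1.93 for NID1, -1.51 for LAMC1, -1.46 for LAMB1 and -1.18 for NID2, each with an adjusted p of 0.000253 or less. LAMA4 differed least, with -0.54 (SE 0.106, adjusted p = 0.00375), and it was not called once cells under 2000 UMIs were left out (-0.53, adjusted p = 0.111). LAMA5 was called at -4.57 on 8 UMIs in cluster 9 and 23 in cluster 7, with -3.23 in replicate 1, while the -6.39 of replicate 2 rests on 1 UMI in cluster 9.

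The members' median log2 fold change between clusters 9 and 7 was -1.72, beside 0.05 for all genes. Scaling by total UMIs in place of TMM moved the median of all genes to -0.46 and the share of called genes that were higher from 53.0% to 29.3%, so the size of these changes depends on the scaling while their direction did not. ITGA7 was at 0.409 in cluster 9 and 10.3 UMIs per 10000 in cluster 7 (log2 fold change -4.14, adjusted p = 3.39e-06). ITGA3, another laminin-binding integrin α chain, was at 0.0564 against 0.721 (-3.17, adjusted p = 1.11e-05), and BCAM at 0.0777 against 0.913 (-3.03, adjusted p = 1.16e-05). Receptors had 1 higher and 8 lower of 13 tested, collagens 3 lower of 4, and other basement membrane components 1 higher and 8 lower of 12. Most of the tested laminin receptor and matrix genes were thus lower in cluster 9. All 4 myogenic markers tested (median log2 fold change -2.05) and all 6 myocyte markers (-3.70) were lower in cluster 9 as well, while the fibroblast markers went both ways, with 3 higher and 4 lower of 9. The part of these and of the shallow cells of cluster 7 in the members' values was not tested.

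The study draws an order from cluster 8 through clusters 1 and 3 to cluster 12, along which MYOG, which marks the onset of differentiation, went from 0.107 to 18.6 UMIs per 10000. The levels of LAMA4, LAMB1 and LAMC1 went down from cluster to cluster along it in both libraries. From cluster 8 to cluster 12 the level of LAMA4 was 13.3-fold lower in replicate 1 and 11.3-fold lower in replicate 2, that of LAMB1 4.22-fold and 4.31-fold, and that of LAMC1 2.65-fold and 2.38-fold. The level of LAMB2 in cluster 12 was 1.04 and 1.15 times that in cluster 8. Neighbouring steps share the sums of a cluster, as do both orders at cluster 8, so the tests below are not independent of one another.

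**Figure D2:**
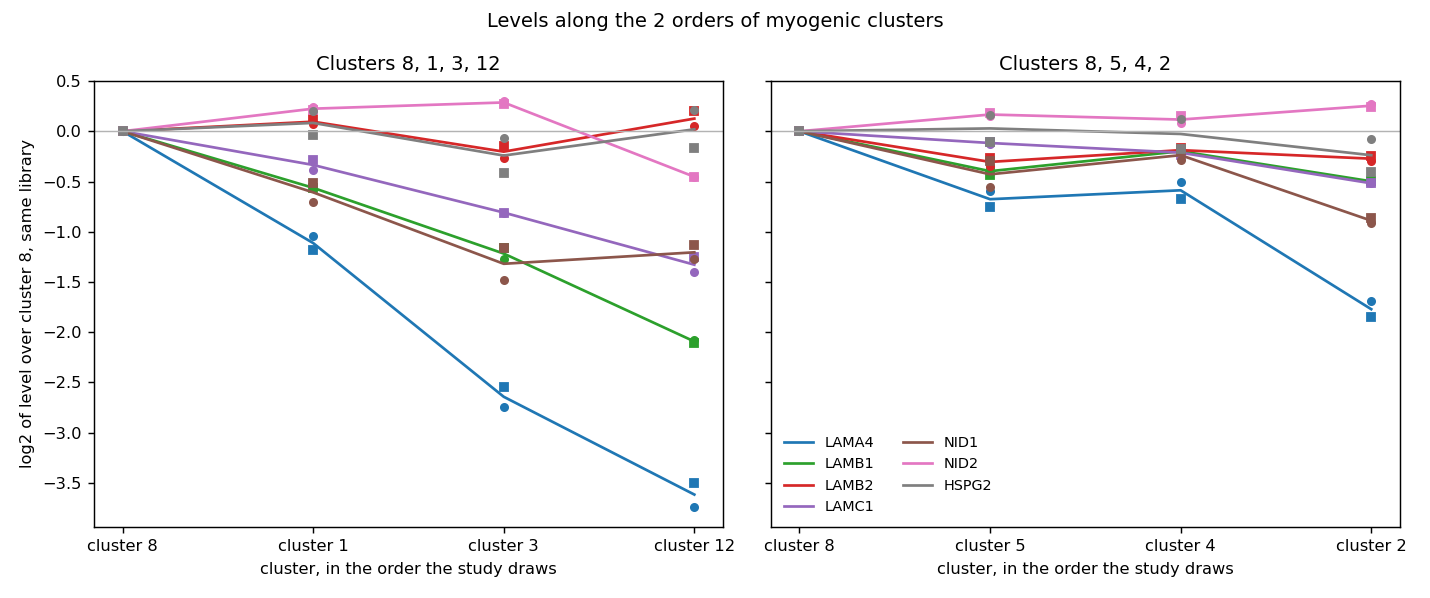
log2 of each gene's level over its level in cluster 8 of the same library, along the clusters in the order the study draws, with circles for replicate 1, squares for replicate 2 and lines through their mean. LAMA4 has the steepest line in both panels, and in cluster 12 LAMB2 is above its cluster 8 level while LAMB1 is far below, and LAMA5 is left out for its low counts.

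In cluster 1 against cluster 8, 4 members were lower, where 16.9% of all genes were called lower, and 2 were higher, where 17.2% were called higher. LAMA4 was at 0.357 and 0.350 in cluster 1 against 0.736 and 0.794 in cluster 8, a log2 fold change of -1.08 (SE 0.0678, adjusted p = 1.31e-05). NID1 was at 0.712 and 0.753 against 1.16 and 1.07 (-0.58, adjusted p = 0.000257), LAMB1 at 0.817 and 0.844 against 1.21 and 1.25 (-0.53, adjusted p = 0.000183), and LAMC1 at 1.71 and 1.75 against 2.23 and 2.14 (-0.30, adjusted p = 0.00226). Each was lower in both libraries without overlap. NID2 was at 0.701 and 0.694 against 0.592 and 0.601 (0.26, adjusted p = 0.0110), and this call was lost with DESeq2 (adjusted p = 0.0698). LAMA5 was called at 1.25 (adjusted p = 0.0440) but lost its call under 5 of 7 alternatives, with adjusted p-values up to 0.249. LAMB2 (0.13, adjusted p = 0.122) and HSPG2 (0.10, adjusted p = 0.780) were not called. BCAM was higher in cluster 1, at 0.625 against 0.224 (log2 fold change 1.51, adjusted p = 2.80e-06), while SDC3, a heparan sulfate syndecan, was lower at 0.0491 against 0.116 (-1.20, adjusted p = 0.000507), as was SMOC1, a calcium-binding matrix protein, at 1.04 against 2.12 (-0.996, adjusted p = 4.18e-06). The receptors had 4 higher and 5 lower of 14 tested and the collagens 1 higher and 3 lower of 5. All 8 fibroblast markers tested were lower in cluster 1, and 3 of 6 myogenic markers were higher.

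From cluster 1 to cluster 3, 5 members were lower and 0 higher, where 19.1% of all genes were called lower and 21.1% higher. DESeq2 also called 0 higher, and 0 further members had an unadjusted p under 0.05 with edgeR. NID2 (0.10, adjusted p = 0.157), HSPG2 (-0.30, adjusted p = 0.227) and LAMA5 (0.45, adjusted p = 0.336) were not called. With the library as a block NID2 was called higher (0.10, adjusted p = 0.0484) and HSPG2 lower (-0.29, adjusted p = 0.0250). LAMA4 was at 0.110 and 0.136 against 0.357 and 0.350 (log2 fold change -1.49, SE 0.0964, adjusted p = 5.76e-05). NID1 was at 0.417 and 0.480 against 0.712 and 0.753 (-0.67, adjusted p = 0.000418), and LAMB1 at 0.499 and 0.558 against 0.817 and 0.844 (-0.62, adjusted p = 0.000306). The changes of LAMC1 (-0.44, adjusted p = 0.000618) and LAMB2 (-0.26, adjusted p = 0.00838) were smaller, and the libraries did not overlap for any of the 5. The members' median was -0.37, beside 0.00 for all genes. COL4A1, a chain of the type IV collagen network, was at 0.374 against 0.739 (log2 fold change -0.95, adjusted p = 5.84e-05), COL15A1, a basement membrane collagen of muscle and vessels, at 0.433 against 0.759 (-0.78, adjusted p = 0.000369), and SMOC1 at 0.434 against 1.04 (-1.22, adjusted p = 1.25e-05). Of 4 collagens tested 3 were lower, and of 13 other basement membrane components 7 were lower. The fibroblast list had 7 lower of 8 tested.

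In the last step, cluster 12 against cluster 3, 4 members were lower, where 15.6% of all genes were called lower, and 1 was higher, where 18.2% were called higher. LAMB2 was the one that rose, at 0.689 and 0.764 in cluster 12 against 0.555 and 0.601 in cluster 3, a log2 fold change of 0.43 (SE 0.0737, adjusted p = 0.00326). LAMB1 went the other way, at 0.286 and 0.289 against 0.499 and 0.558 (-0.78, SE 0.0871, adjusted p = 0.000377). The libraries overlapped for neither chain. LAMA4 was at 0.0553 and 0.0703 against 0.110 and 0.136 (-0.87, SE 0.187, adjusted p = 0.00925), LAMC1 at 0.844 and 0.898 against 1.27 and 1.22 (-0.42, adjusted p = 0.00132), and NID2 at 0.433 and 0.439 against 0.729 and 0.728 (-0.64, adjusted p = 0.000252). NID2, which had not been lower at the steps before, thus fell in the most differentiated cluster. NID1 was at 0.480 and 0.489 against 0.417 and 0.480 and was not called (0.21, adjusted p = 0.103), but was called higher with the library as a block (0.21, adjusted p = 0.0216). HSPG2 (0.36, adjusted p = 0.165) and LAMA5 (-0.14, adjusted p = 0.805) were not called. Scaling by total UMIs moved the median of all genes from -0.02 to -0.12 and the share of called genes that were higher from 53.8% to 38.0%. The levels are shares of total UMIs, while the fold changes of the main fit are scaled by TMM. Over the main fit and its alternatives the log2 fold change ran from 0.33 to 0.44 for LAMB2. It ran from -0.88 to -0.71 for LAMB1 and from 0.11 to 0.23 for NID1.

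The laminin receptors were split in cluster 12, with 4 higher and 4 lower of 14 tested. ITGA6, a laminin-binding integrin α chain, was at 0.256 against 0.0704 (log2 fold change 1.96, adjusted p = 1.22e-05) and BCAM at 1.36 against 0.720 (1.01, adjusted p = 3.21e-05), whereas ITGA3 was at 0.0879 against 0.196 (-1.05, adjusted p = 0.00113). Of 16 dystroglycan glycosylation genes 4 were higher and 1 lower, and of 3 collagens 2 were lower. Of the 10 S phase genes 9 were lower in cluster 12, together with 5 of 10 G2/M genes and 5 of 7 fibroblast markers tested.

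The other order drawn by the study runs from cluster 8 through clusters 5 and 4 to cluster 2, along which the summed level of the 10 G2/M genes was 1.84, 5.41, 42.6 and 43.0 UMIs per 10000. In cluster 5 against cluster 8, 4 members were lower, where 12.2% of all genes were called lower, and 0 were higher, where 16.3% were called higher. LAMA4 was at 0.488 and 0.469 against 0.736 and 0.794 (log2 fold change -0.67, SE 0.0662, adjusted p = 0.000253), NID1 at 0.789 and 0.872 against 1.16 and 1.07 (-0.43, adjusted p = 0.00357), and LAMB1 at 0.939 and 0.924 against 1.21 and 1.25 (-0.39, adjusted p = 0.00129). No library of cluster 5 overlapped cluster 8 for these 3 genes. LAMB2 was at 0.523 and 0.554 against 0.666 and 0.664 (-0.30, adjusted p = 0.00963), a call lost with DESeq2 (adjusted p = 0.0687). DESeq2 called 0 higher as well. Uncalled were NID2 (0.17, unadjusted p = 0.0232, adjusted p = 0.0720) and LAMC1 (-0.11, adjusted p = 0.131), both called with the library as a block (adjusted p = 0.00965 and 0.0128). HSPG2 was at 0.01 (adjusted p = 0.976), and LAMA5 was too low to be tested. FBLN2, a fibulin that binds nidogen and laminin, was at 1.51 against 2.18 (log2 fold change -0.53, adjusted p = 0.000249) and SPARC, a collagen-binding matrix protein, at 38.9 against 53.9 (-0.47, adjusted p = 4.92e-05), while ITGA7 was at 1.48 against 1.14 (0.38, adjusted p = 0.00519). Cluster 5 was higher in all 10 S phase genes and all 10 G2/M genes and lower in 6 of 8 fibroblast markers.

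In cluster 4 against cluster 5, 0 members were called in either direction by edgeR, where 9.16% of all genes were called higher and 7.28% lower. DESeq2 also called 0, and 2 members, LAMB1 and NID1, had an unadjusted p under 0.05 with edgeR. LAMB1 was at 1.04 and 1.10 against 0.939 and 0.924 (log2 fold change 0.17, adjusted p = 0.0621), and NID1 at 0.9499 and 0.944 against 0.789 and 0.872 (0.16, adjusted p = 0.117). With the library as a block LAMB1 (adjusted p = 0.00191) and NID1 (adjusted p = 0.00564) were called higher and LAMC1 lower (-0.12, adjusted p = 0.0108). LAMA4 was at 0.519 and 0.499 against 0.488 and 0.469 (0.06, adjusted p = 0.539). The other log2 fold changes were 0.09 for LAMB2, -0.08 for NID2 and HSPG2 and 0.02 for LAMA5, with adjusted p-values from 0.332 to 0.983. All 10 G2/M genes were higher in cluster 4, with a median log2 fold change of 2.80, beside 0.04 for the members. In the pathway lists DOLK, the dolichol kinase whose product feeds protein glycosylation, was at 0.151 against 0.237 (log2 fold change -0.68, adjusted p = 0.00196), ITGA7 at 1.94 against 1.48 (0.36, adjusted p = 0.00905) and SDC1, a syndecan, at 0.271 against 0.321 (-0.27, adjusted p = 0.0367).

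Cluster 2 against cluster 4 compares cells high in G2/M genes that differ in MYOD1, at 6.72 UMIs per 10000 in cluster 2 and 2.71 in cluster 4. There 4 members were lower and 0 higher, where 15.7% of all genes were called lower and 14.5% higher. LAMA4 was at 0.228 and 0.220 in cluster 2 against 0.519 and 0.499 in cluster 4 (log2 fold change -1.20, SE 0.0597, adjusted p = 4.05e-05), and NID1 at 0.615 and 0.591 against 0.9499 and 0.944 (-0.67, SE 0.0472, adjusted p = 0.000169). LAMC1 (-0.32, adjusted p = 0.00549) and LAMB1 (-0.31, adjusted p = 0.00422) followed with smaller differences, and none of the 4 overlapped. NID2 was at 0.714 and 0.710 against 0.629 and 0.666 (0.12, unadjusted p = 0.0440, adjusted p = 0.110) and was called higher with the library as a block (adjusted p = 0.0153), while DESeq2 called 0 members higher. LAMA5 (0.60, adjusted p = 0.176), LAMB2 (-0.10, adjusted p = 0.189) and HSPG2 (-0.23, adjusted p = 0.373) were not called. SMOC1 was at 0.714 against 1.65 (log2 fold change -1.22, adjusted p = 1.84e-05), COL4A1 at 0.602 against 0.974 (-0.71, adjusted p = 0.000142) and BCAM at 0.369 against 0.220 (0.73, adjusted p = 0.000388). Of the G2/M genes 1 was higher and 1 lower, of the fibroblast markers 7 of 8 were lower, and the collagens had 2 lower of 4. All 6 myocyte markers were higher in cluster 2 (median log2 fold change 2.02). All 4 pericyte or smooth muscle markers tested were lower (median -0.93). The part of these in the members' values was not tested.

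Clusters 6 and 11 were both high in S phase genes, with summed levels of 20.3 and 20.5 UMIs per 10000, and differed in MYOD1, at 5.75 and 1.35. In cluster 6 against cluster 11, 2 members were lower, where 7.72% of all genes were called lower, and 1 was higher, where 8.75% were called higher. LAMB1 was at 0.741 and 0.752 against 0.919 and 0.968 (log2 fold change -0.27, SE 0.0578, adjusted p = 0.0182), LAMC1 at 1.60 and 1.55 against 1.93 and 1.87 (-0.21, SE 0.0477, adjusted p = 0.0238), and NID2 at 0.813 and 0.838 against 0.747 and 0.747 (0.21, SE 0.0559, adjusted p = 0.0446). DESeq2 called none of these 3, with adjusted p-values of 0.0599, 0.0616 and 0.266. LAMA4 was at 0.197 and 0.246 against 0.291 and 0.333 (-0.43, SE 0.127, adjusted p = 0.0614). NID1 (adjusted p = 0.0518), LAMB2 (adjusted p = 0.0703), LAMA5 (0.61, adjusted p = 0.485) and HSPG2 (0.02, adjusted p = 0.958) were not called either. With the library as a block LAMA4 (adjusted p = 6.16e-06) and NID1 (-0.25, adjusted p = 3.97e-05) were called lower and LAMB2 higher (0.22, adjusted p = 0.00379). Scaling by total UMIs moved the share of called genes that were higher from 53.1% to 37.2%. BCAM was at 0.324 against 0.0894 (log2 fold change 1.92, adjusted p = 3.67e-05), ITGA7 at 2.43 against 1.47 (0.78, adjusted p = 0.000123) and NTN1, a netrin related to laminins, at 0.0708 against 0.144 (-0.96, adjusted p = 0.00448). Of the collagens 2 of 4 tested were lower. Cluster 6 was also higher in 5 of 6 myocyte markers and 4 of 10 G2/M genes, and its fibroblast markers had 1 higher and 5 lower of 8 tested. The part of these in the members' values was not tested.

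**Figure D3:**
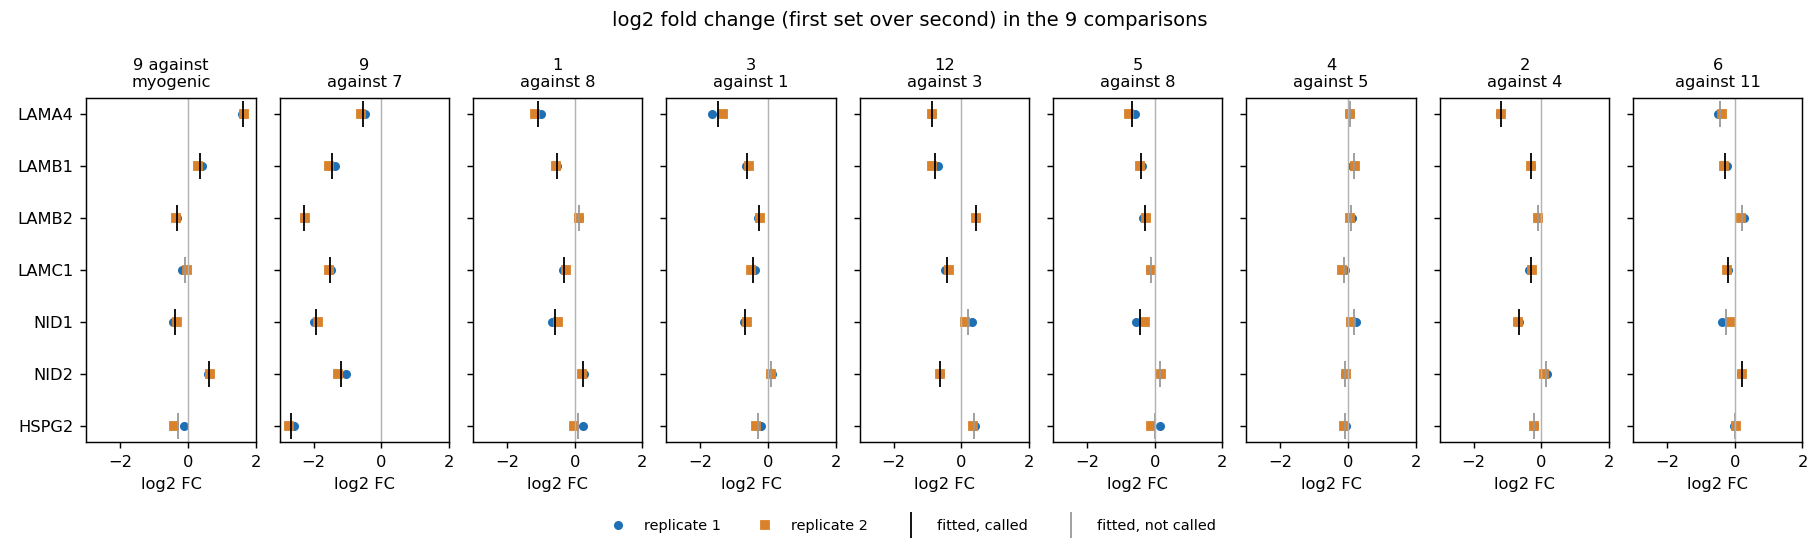
log2 fold change of 7 genes in the 9 comparisons, with circles and squares for the ratio within replicate 1 and replicate 2 and a bar for the fitted value, black where the adjusted p was under 0.05 in edgeR and grey otherwise. LAMA4 lies at -0.87 or below in the 3 comparisons from cluster 8 to cluster 12 and in cluster 2 against cluster 4, all 7 genes lie below 0 in cluster 9 against cluster 7, and LAMA5 is left out for its low counts.

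Whether the difference between MYOD1-high and MYOD1-low clusters was of another size among G2/M than among S phase cells was tested with an interaction term over the 8 sums of clusters 2, 4, 6 and 11. Of all genes tested 9.28% were called, and 3 members were among them. LAMA4 differed by -0.75 (SE 0.141, adjusted p = 0.0117), NID1 by -0.40 (SE 0.0852, adjusted p = 0.0201) and LAMB2 by -0.31 (SE 0.0789, adjusted p = 0.0418). For LAMA4 and NID1 the drop was larger in cluster 2 against cluster 4, and for LAMB2 the 2 contrasts had opposite signs, -0.10 and 0.22. The call of LAMB2 was lost when total UMIs set the scale (adjusted p = 0.0765) and without cells called doublets (adjusted p = 0.130), and the other 2 were called under all 5 alternatives that changed its sums or fit. LAMA5 (0.01), LAMB1 (-0.02), NID2 (-0.07), LAMC1 (-0.09) and HSPG2 (-0.23) were not called.

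Ratios of UMIs within a library do not depend on how the libraries or clusters were scaled. They are read only between clusters, since genes can be captured with unequal efficiency. LAMB2 over LAMB1 was 0.552 in replicate 1 and 0.532 in replicate 2 in cluster 8, 0.857 and 0.854 in cluster 1, 1.11 and 1.08 in cluster 3, and 2.41 and 2.64 in cluster 12. Both libraries of each cluster lay above both of the cluster before it, and the libraries of cluster 12 lay above those of the other clusters from 1 to 12. In cluster 9 this ratio was lowest of the same clusters, at 0.432 and 0.463, although cluster 11, at 0.464 and 0.468, was close. LAMA4 over LAMC1 was 0.706 and 0.683 in cluster 9, 0.330 and 0.371 in cluster 8 and 0.0655 and 0.0783 in cluster 12. NID2 over NID1 was 0.510 and 0.560 in cluster 8, 0.984 and 0.921 in cluster 1, 1.75 and 1.52 in cluster 3, and 0.902 and 0.899 in cluster 12, so that it went up over 2 steps and down in the last. Its highest values were in cluster 9, at 1.89 and 1.79. Along the other order it was 0.833 and 0.783 in cluster 5, 0.662 and 0.706 in cluster 4, and 1.16 and 1.201 in cluster 2. LAMA5 over LAMA4 was 0.0108 and 0.0108 in cluster 8 and 0.353 and 0.341 in cluster 12, on the few UMIs of LAMA5.

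**Figure D4:**
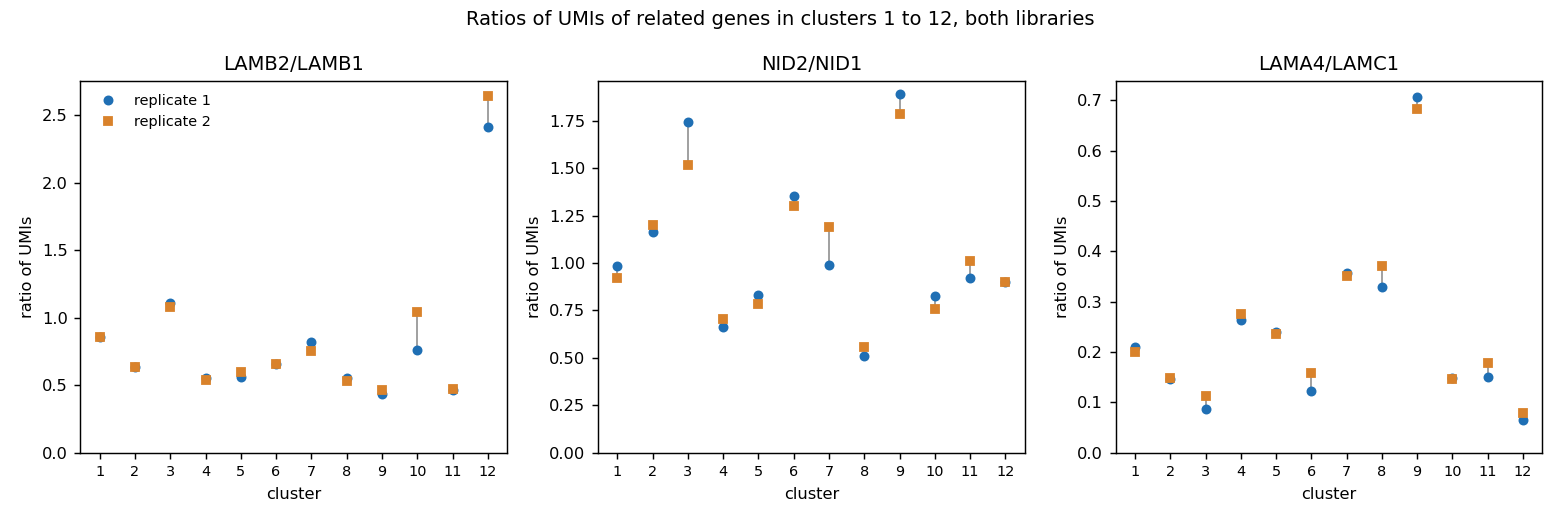
Ratio of UMIs of LAMB2 to LAMB1, NID2 to NID1 and LAMA4 to LAMC1 in clusters 1 to 12, with circles for replicate 1, squares for replicate 2 and a line joining both. LAMB2 over LAMB1 stands apart in cluster 12, and LAMA4 over LAMC1 in cluster 9.

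At the level of single cells, each of the 15996 cells with at least 5000 UMIs was thinned to 5000. LAMC1 was then detected in 54.7% of cells, LAMB1 in 34.4%, NID1 in 29.5%, NID2 in 28.1%, LAMB2 in 24.8%, LAMA4 in 15.9%, HSPG2 in 4.66% and LAMA5 in 0.750%. Without thinning the shares were 81.2%, 63.2%, 57.5%, 55.0%, 53.3%, 34.4%, 13.8% and 2.22%. Intervals for shares are exact binomial 95% intervals and cover counting error only. LAMA4 was detected in 41.2% of cells of cluster 9 (38.2 to 44.2) and 29.9% of cluster 8 (27.4 to 32.6), but in 5.07% of cluster 3 (4.16 to 6.12) and 2.77% of cluster 12 (1.62 to 4.40). No cluster is known to lack this gene, so the background from free RNA was not measured. Before thinning the cells of cluster 12 had a median of 19113 UMIs and those of cluster 8 one of 13158.

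A UMI of an α, a β and a γ chain in the same thinned cell was found in 12.8% of cells of cluster 9 (10.8 to 14.9), 11.4% of cluster 8 (9.64 to 13.3), 7.65% of cluster 4, 6.71% of cluster 5 and 5.97% of cluster 1. The same share was 1.48% in cluster 3 (0.999 to 2.10) and 0.489% in cluster 12 (0.101 to 1.42). At least 1 laminin chain of any kind was still detected in 63.3% of cells of cluster 12 and 67.7% of cluster 3, against 90.2% of cluster 8. The UMIs of α chains were nearly all of LAMA4, 11706 against 435 of LAMA5, so the share with all 3 kinds of chain follows the level of LAMA4 by construction. LAMA2 was not counted among the α chains, so cells that make a trimer with it are not seen in this share.

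**Figure D5:**
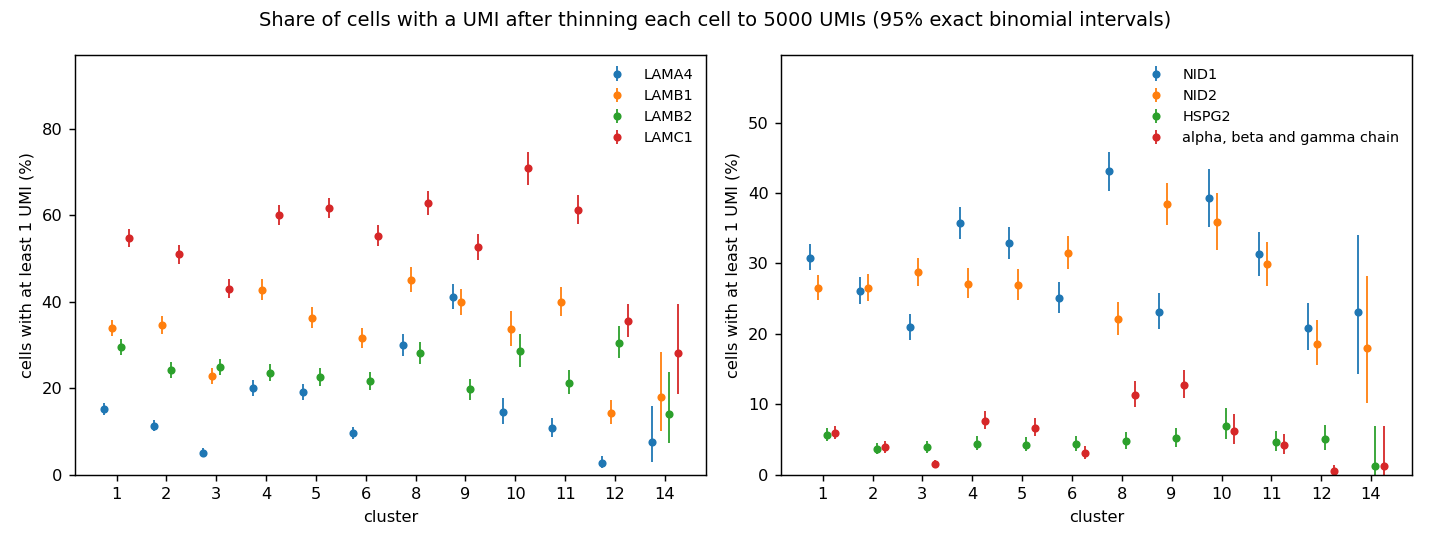
Share of cells with at least 1 UMI of a gene, or of an α, a β and a γ chain together, after each cell was thinned to 5000 UMIs, in the clusters with at least 50 such cells, with points for the share in % and bars for exact binomial 95% intervals that cover counting error only. LAMA4 and the 3 kinds of chain together are most frequent in clusters 9 and 8 and infrequent in clusters 3 and 12.

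Of laminin chains outside the list, LAMB3 had 367 UMIs, LAMA1 138, LAMA3 16 and LAMC3 0. Among the basement membrane collagens COL4A1 had 27719 UMIs, COL15A1 22087, COL18A1 1342 and COL4A2 618. Genes can be captured with unequal efficiency, so these totals are not compared between genes. Of the 1481468 UMIs of the laminin receptors 1121781 were of RPSA, which is also a ribosomal protein gene, so their sum is not compared between clusters.

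Over the 11 clusters from 1 to 6 and 8 to 12 the level of each member was compared with that of 6942 other genes (6943 for LAMA5 and HSPG2), by Pearson's r of log2(UMIs per 10000 + 0.01), taking the lower of the 2 libraries. These r describe a handful of clusters that share libraries, depth and cell state, and no p is given. The genes most like LAMA4 were TGFB1I1 (r = 0.982) and MFGE8 (r = 0.979), and those most like LAMC1 were ENC1 (r = 0.978) and LTBP3 (r = 0.976). For LAMB1 they were ID2 and SQOR, both with r = 0.967, for NID1 PKD2 (r = 0.951) and AHNAK (r = 0.948), and for LAMB2 YPEL3 (r = 0.928) and PPDPF (r = 0.910). NID2 was most like RBPMS2 (r = 0.914) and C9H6orf120 (r = 0.909). The levels of LAMA5 (VGLL3, r = 0.951, and SH3GLB1, r = 0.939) and HSPG2 (ATG13, r = 0.810, and FKBP8, r = 0.791) rest on few UMIs. Among the members themselves LAMA4 and LAMB1 ran most closely together, with r = 0.929 in replicate 1 and 0.890 in replicate 2, followed by LAMC1 and NID1 with 0.863 and 0.898. NID1 and NID2 had r = -0.01 and 0.10, and LAMB2 and NID2 -0.61 and -0.56. The α chains LAMA4 and LAMA5 had r = -0.84 and -0.80, on the few UMIs of LAMA5, whose order over the clusters is poorly resolved. The 2 nidogens thus did not share an order of clusters, nor did the 2 β chains, with -0.33 and -0.47.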

How the data were processed

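Reads were aligned by the authors with Cell Ranger 3.0.2 against the ARS-UCD1.2 genome, and the authors kept uniquely mapped reads, counted UMIs and called cells. They combined both libraries with Cell Ranger set to normalize by mapped reads, and no removal of doublets is described. The deposited counts are whole numbers of UMIs per gene and cell. The authors also deposited, for each cluster, an average UMI count per gene (a score scaled to a common total), and log2 fold changes and p-values of their own comparison of cells, which were not used. The cluster of every cell was deduced from the deposited averages, which convert to whole UMI sums per gene and cluster (largest distance from a whole number 0.000107). No cell was left unassigned.

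UMIs were summed per cluster and library, normalized with TMM after filterByExpr and tested as 2 sums against 2 with the quasi-likelihood test of edgeR 4.0.16 in R 4.3.3, with Benjamini-Hochberg adjustment over all genes tested and a call at an adjusted p under 0.05. Alternatives were DESeq2 1.42.0, no filter, the library as a block, total UMIs as scale, cells under 2000 UMIs left out, cells assigned by profile, 1 fit over all 15 clusters, and each library left out (a value with no test). Doublets were kept. The planned doublet threshold, taken from replicate 1, marked 1 cell, and that of replicate 2 was applied to both libraries after the data were seen, which marked 1153 cells (6.04%). The alternatives of the interaction test were also chosen after the data were seen. Sums of the same library pair, as the cells come from the same library. In each comparison the log2 ratio of replicate 1 to replicate 2 was correlated between both sets of cells, over 5922 to 10144 genes. The correlations ran from 0.200 to 0.621 over the 9 comparisons. On simulated counts with 200 genes changed 3-fold, 83.0% to 97.0% were recovered over the 9 comparisons (10637 to 12769 genes). Of the calls on these counts, 2.54% to 8.17% were of unchanged genes. The simulation used a common dispersion for all genes and no deviation shared within a library. Most changes of members were smaller than 3-fold, so the recovery does not bear on members that were not called.

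Every member was named in every comparison. From the pathway lists (other laminin chains, basement membrane collagens, other basement membrane components, laminin receptors, dystroglycan glycosylation) the 3 called genes of largest log2 fold change with a level of at least 0.1 UMI per 10000 in the higher set were named. Other genes named from these lists or as markers were chosen after their values were seen. LAMB4 carried no row under that symbol, and some genes of the lists are not reported here. The members and all lists were chosen with earlier results of these data known. Gene names were taken from the deposited list of features, and no sequence or coordinate was used here.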

Additional observations from a re-analysis of the deposited data

Results flagged for a closer look

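For 3 genes the log2 fold change between a MYOD1-high and a MYOD1-low cluster differed between the G2/M pair (cluster 2 against cluster 4) and the S phase pair (cluster 6 against cluster 11), by edgeR's interaction test with Benjamini-Hochberg adjustment over all genes, of which 9.28% were called. LAMA4 differed by -0.75 (adjusted p = 0.0117), from -1.20 in the G2/M pair and -0.43 in the S phase pair. NID1 differed by -0.40 (adjusted p = 0.0201), from -0.67 and -0.25. LAMB2 differed by -0.31 (adjusted p = 0.0418), from -0.10 and 0.22. In the main fit neither fold change of LAMB2 was called, nor were those of LAMA4 and NID1 in the S phase pair. With the library as a block in edgeR, all 3 genes were called in the S phase pair. LAMA4 (adjusted p = 6.16e-06) and NID1 (adjusted p = 3.97e-05) were lower there and LAMB2 (adjusted p = 0.00379) was higher. The interaction call of LAMB2 was lost with total UMIs as scale and without cells called doublets (adjusted p up to 0.130). Both libraries showed the direction of each single fold change. No group of 4 or more samples was present in which an outlying sample could be sought.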

How the results depend on the processing

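Of 71 log2 fold changes of members, 41 were called, and 34 of these were called under every alternative that gave them a test. Leaving out cells under 2000 UMIs removed cells in 9 against 7 only, where LAMA5 then had no value, so 7 alternatives bear on the other 8 comparisons. The 7 lost calls were LAMA4 in cluster 9 against 7, LAMA5 and NID2 in 1 against 8, LAMB2 in 5 against 8, and LAMB1, LAMC1 and NID2 in 6 against 11, and no call reversed. The library as a block lost 0 calls and added 14 and was the setting that moved most counts. Members higher with this replicate block numbered 1 in 3 against 1, 2 in 12 against 3, 1 in 5 against 8, 2 in 4 against 5, 1 in 2 against 4 and 2 in 6 against 11, and members lower 5 in 9 against the myogenic clusters, 1 in 4 against 5 and 4 in 6 against 11. In 1 against 8 the members called higher were 0 with DESeq2 and 1 each without the filter, with total UMIs, with cells assigned by profile and in 1 fit over all 15 clusters. In 4 against 5, 1 member was higher with total UMIs, without doublets and by profile. By profile 1 member was higher in 2 against 4 and 2 were in 6 against 11. In 6 against 11, 0 were higher with DESeq2, without the filter, with total UMIs and in the fit over 15 clusters, and 0 were lower with DESeq2 and 4 with total UMIs or without doublets. Uncalled values that changed sign were HSPG2 in 5 against 8 (0.01, and -0.029 without doublets, -0.12 by profile and -0.0025 in the fit over 15 clusters), LAMA5 in 4 against 5 (0.02, and -0.39 by profile and -0.015 in the fit over 15 clusters), HSPG2 in 4 against 5 (-0.08, and 0.014 by profile) and HSPG2 in 6 against 11 (0.02, and -0.044 with total UMIs). The causes were not tested. Leaving out either library reversed no called value, and with 1 sum against 1 there was no test. The planned doublet alternative marked 1 cell and was not run.

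Shares of cells with a UMI move with depth. Without thinning and after thinning to 1000 UMIs they were 34.4% and 4.59% for LAMA4, 2.22% and 0.266% for LAMA5, 63.2% and 9.38% for LAMB1, 53.3% and 6.92% for LAMB2, 81.2% and 17.2% for LAMC1, 57.5% and 8.39% for NID1, 55.0% and 8.13% for NID2, and 13.8% and 1.28% for HSPG2. Depth limits LAMA5 and HSPG2 and every level in clusters 7 and 13 to 15, and cluster 15 held no cell with 2000 UMIs.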

Other observations

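Beside the lists already described, the 7 pericyte or smooth muscle markers summed to between 4.45 UMIs per 10000 in cluster 10 and 12.3 in cluster 7. Of their 216203 UMIs in all cells 190636 were of ACTA2, 10356 of NOTCH3, 8484 of CNN1 and 6425 of CSPG4. MYH11 had 192, MCAM 102 and RGS5 8. The 5 immune markers summed to between 0 in cluster 15 and 0.180 in cluster 7. Of their 820 UMIs in all cells 580 were of CD68, 159 of LYZ, 66 of CD14, 14 of CSF1R and 1 of PTPRC. The 6 myocyte markers summed to 54.6 in cluster 12, 16.9 in cluster 7 and 14.6 in cluster 3, and to 7.28 or less elsewhere. The endothelial sum of 0.224 in cluster 12 was almost wholly CLDN5, at 0.220 UMIs per 10000. The dystroglycan glycosylation genes summed to between 4.27 in cluster 2 and 7.02 in cluster 7. The share of cells called doublets was 15.3% in cluster 6 and 12.96% in cluster 9, and 0.231% in cluster 7 and 0.483% in cluster 8.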
